A study of Schmidtea mediterranea with 18 samples.

Results

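The 100 most abundant transcripts of regenerating planarian fragments were chosen by their mean level over all 18 libraries, from a table of 82955 transcripts. The level was CPM, the read count of a transcript normalized to the aligned reads of its library. Together they held 31.1% of all aligned reads on average, and 1 transcript alone, SmedASXL_078927, held 10.9%. The mean CPM chose the members, so their abundance is given below as a description. Tests were made only of differences between treatments and between days, which the ranking did not use directly. A transcript near the limit can still enter through the treatment or day where it is high. For such members the differences are not independent of the choice. All 100 members passed the filter on low counts, which left 36235 transcripts for testing.

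The animals were Schmidtea mediterranea of the asexual clonal strain CIW4, a freshwater flatworm that rebuilds missing body parts from stem cells. They were fed double-stranded RNA 3 times for gene knockdown by RNA interference (RNAi), against apc (APC RNAi), against Smed-Bcatenin1 (Bcat RNAi) or as a control that the sample titles call GFP RNAi, and were cut 3 days after the last feeding. RNA came from trunk fragments on each of the 6 days after the cut, although 1 protocol field speaks of tail fragments. The RNA of 3 biological replicates went into each pool, which left 1 library for each treatment and day. The treatments were therefore compared over the 6 days, and a p-value measures how constant a difference was over days, not how it varies between animals.

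In animals, APC is part of the complex that marks beta-catenin for destruction, and beta-catenin carries the canonical Wnt signal into the nucleus, where it acts with TCF/LEF factors. In planarians this pathway sets the head-to-tail axis: loss of beta-catenin leads to heads in place of tails, and loss of APC leads to tails in place of heads. The most abundant messenger RNAs of an animal usually encode common proteins such as those of ribosomes, muscle and cytoskeleton. The files pair no SmedASXL identifier with a gene name or sequence, so no role is given for any member, none of the classes listed for the set (ribosomal proteins, muscle proteins, tubulins, mitochondrial genes, gut peptidases and others) could be counted, and the knockdown of the 2 targeted genes was not checked.

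Aligned reads ranged from 41549185 to 58308153 per library, and 3.98% to 6.06% of reads did not align. The lowest count of any member in any library was 15449 reads. The sampling of reads therefore adds little error: the Wilson 95% interval of the members' summed share was at most 0.0284 percentage points wide in any library. This interval covers counting error only, since the reads carried no molecular identifiers as far as the labels say. Transcript lengths were not given, so the ranks compare reads per transcript, in which a longer transcript collects more reads, and not RNA molecules.

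The read counts were concentrated in few transcripts. The first 5 members held 14.7% of aligned reads on average, the first 10 held 16.8%, the first 25 held 21.2% and the first 50 held 25.5%. The next 100 transcripts by rank brought the share to 38.5%, and the first 1000 reached 59.98%. After SmedASXL_078927, at a mean of 108634 CPM, the curve dropped steeply to SmedASXL_012049 at 13655 CPM, SmedASXL_012756 at 10520.1 CPM, SmedASXL_016807 at 9056 CPM and SmedASXL_012104 at 4823 CPM. The limit at rank 100 fell in a flat stretch: SmedASXL_014085, SmedASXL_010535 and SmedASXL_006664 lay just inside it at 936, 933 and 928 CPM, and SmedASXL_006821, SmedASXL_009669 and SmedASXL_018034 just outside at 926, 907 and 906 CPM.

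**Figure D1:**
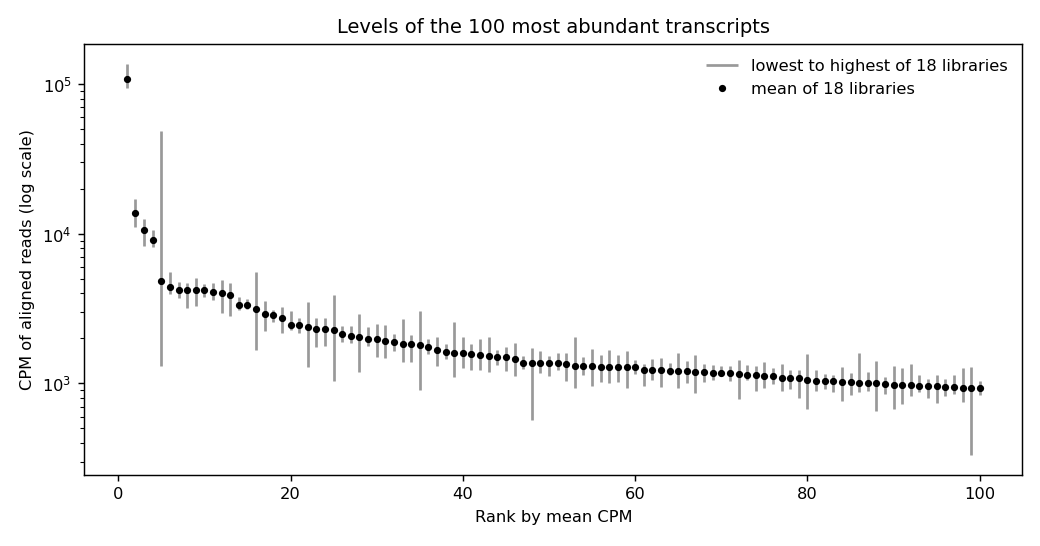
Mean CPM of aligned reads on a log axis by rank, with bars from the lowest to the highest of the 18 libraries for each of the 100 members. The first transcript stands at 108634 CPM and the member at rank 100 at 928 CPM; the long bar at rank 5 is SmedASXL_012104, which ranged from 1298 to 48844 CPM.

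The list was nearly the same by other rules. Ranked by the 6 control libraries alone, 96 of the 100 members were the same, and ranked by the median over libraries, 98 were the same. Each library's own first 100 transcripts held 86 to 96 members, and 70 members were among the first 100 in all 18 libraries. The lowest place of any member was rank 383, for SmedASXL_010535 in the Bcat RNAi library of day 6.

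Most members varied little over the 18 libraries. The highest library exceeded the lowest by less than 1.5-fold for 52 members, by 1.5 to 2-fold for 36, by 2 to 5-fold for 11 and by more for 1. The coefficient of variation of CPM had a median of 10.1% over the members, against 10.2% over the next 100 transcripts by rank and 9.90% over the other 2554 transcripts with a mean over 64 CPM. The members with the smallest coefficient were SmedASXL_004487, which stayed between 1113 and 1297 CPM (3.95%), and SmedASXL_014518, which stayed between 3154 and 3652 CPM (4.28%). The largest coefficients belonged to SmedASXL_012104 (228%) and SmedASXL_010535 (36.8%).

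SmedASXL_012104 held its place at rank 5 through 1 library. Its levels from day 1 to day 6 were 4505, 1883, 2527, 1883, 2530.4 and 1298 CPM in control. They were 48844, 1353, 1717, 2182, 2311 and 2098 CPM in APC RNAi. In Bcat RNAi they were 1602, 2333, 3784, 2168, 1984 and 1814 CPM. The APC RNAi library of day 1 held 2419404 reads of it, 4.88% of that library (Wilson 95% interval 4.878% to 4.890%), and stood 10.8-fold above the next library, control of day 1. Over the other 17 libraries the treatments overlapped, the mean was 2234 CPM, the coefficient of variation was 36.4% and the transcript would rank 25. Over those 17 libraries 99 of the 100 members were the same. The fitted difference between APC RNAi and control was 0.94 on the log2 scale (SE 0.48) and did not pass the threshold (edgeR quasi-likelihood test, adjusted p = 0.113).

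The share of aligned reads that the 100 members took was highest in APC RNAi and lowest in Bcat RNAi. It was 30.9%, 31.7%, 31.4%, 31.4%, 29.8% and 30.3% at days 1 to 6 in control, with a mean of 30.9% ± 0.717 (SD, n = 6 days). In APC RNAi it was 34.8%, 32.2%, 31.4%, 31.9%, 34.2% and 31.2%, with a mean of 32.6% ± 1.505. In Bcat RNAi it was 29.6%, 29.7%, 29.7%, 29.0%, 30.2% and 29.9%, with a mean of 29.7% ± 0.403. The APC RNAi libraries of days 1 and 5 stood above all others, and at day 3 APC RNAi and control were level. APC RNAi exceeded control by 1.69 percentage points on average (SD 1.90 over the days) and was higher on 5 of 6 days. Bcat RNAi was below control by a mean difference of -1.27 percentage points (SD 1.03) and was lower on 5 of 6 days, and APC RNAi exceeded Bcat RNAi on 6 of 6 days by a mean of 2.95 points (SD 1.46). The share is a sum over members chosen for their level, so no p-value is given for it. In bulk RNA, a change in the number of cells of a type and a change in RNA per cell cannot be told apart.

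The first transcript and the other members behaved differently in that sum. SmedASXL_078927 took 10.98%, 12.4%, 12.3%, 11.1%, 10.7% and 10.8% of reads in control from day 1 to day 6. It took 10.1%, 10.6%, 10.7%, 10.8%, 13.7% and 10.7% in APC RNAi. In Bcat RNAi it took 10.1%, 10.1%, 9.92%, 9.37%, 10.2% and 10.9%. Apart from the APC RNAi library of day 5, its share in APC RNAi was at most 10.8%, and it was below control on 5 of 6 days. With this transcript and SmedASXL_012104 left out, the other 98 members took 19.3% ± 0.440 in control, 20.5% ± 0.586 in APC RNAi and 19.3% ± 0.301 in Bcat RNAi (SD, n = 6 days each). APC RNAi was then above control on 6 of 6 days, by 0.321 to 2.32 percentage points, while Bcat RNAi was above control on 3 of 6 days. The next 100 transcripts by rank took 7.40% in control, 7.71% in APC RNAi and 7.24% in Bcat RNAi. APC RNAi exceeded control there by 0.305 points on average and was higher on 5 of 6 days.

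**Figure D2:**
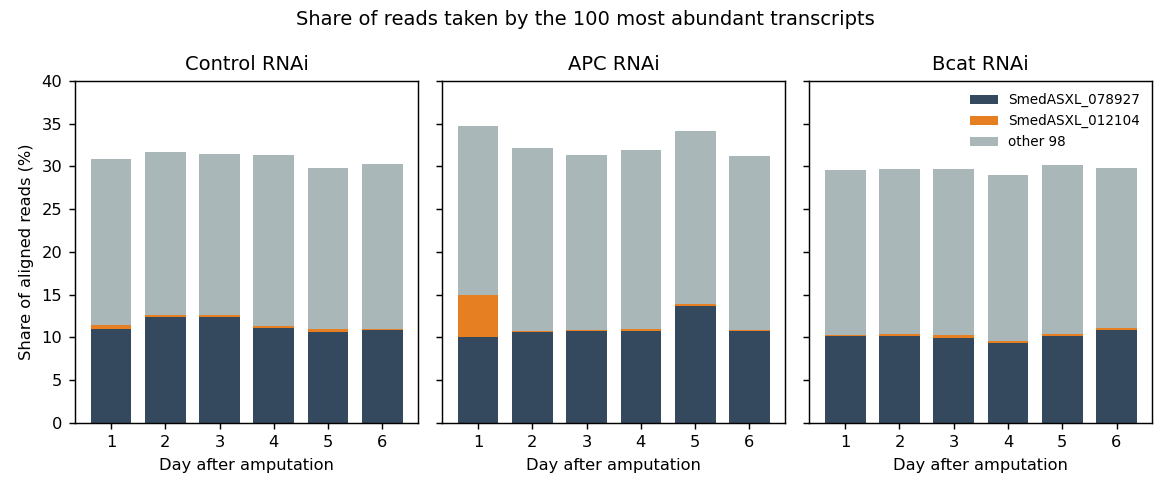
Percent of aligned reads by day in separate panels for each treatment, as stacked bars of SmedASXL_078927, SmedASXL_012104 and the other 98 members. Each bar is a single pooled library, and its full height is the share of the 100 members together. The part of the other 98 members is larger in APC RNAi than in control on all 6 days. The 13.7% of SmedASXL_078927 in APC RNAi at day 5 stands apart.

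For tests of single transcripts, counts were scaled by edgeR's TMM factors, which assume that the typical transcript does not change. The factors differed by treatment: they averaged 1.06 in control (0.969 to 1.15), 0.888 in APC RNAi (0.805 to 0.970) and 1.07 in Bcat RNAi (1.01 to 1.13). A factor under 1 raises every scaled value of that library, so scaled CPM and the share of reads can differ in direction for the same transcript. Levels in the treatment comparisons and courses below are in scaled CPM unless CPM of aligned reads is named.

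Under APC RNAi, 90 of the 100 members were higher than in control, 1 was lower and 9 did not pass the threshold (edgeR quasi-likelihood test with day as a block, adjusted p under 0.05 over all transcripts tested). Of all 36235 transcripts tested 44.2% passed, 21.1% higher and 23.1% lower. Among other abundant transcripts, 78% of the 2554 others over 64 CPM passed, 75.9% higher and 2.04% lower. Of the next 100 by rank 86 were higher and 6 lower. The members' median log2 difference was 0.36 (quartiles 0.28 to 0.41), against 0.24 for the others over 64 CPM and -0.11 for all transcripts tested. It was 0.43 with RLE factors, 0.10 with no factors, 0.19 with TMM factors of transcripts that reached 4 CPM and -0.01 with a loess offset. The differences were small in fold: 78 of the members called higher were at least 1.2-fold higher, 5 were at least 1.5-fold higher and 0 reached 2-fold. Called and at least 1.2-fold higher were 77 of the next 100 by rank, 1142 of the 2554 others over 64 CPM and 4058 of all 36235 tested. At least 2-fold higher were 7 of those others and 99 of all tested. Among the others over 64 CPM 2.11% were called and at least 1.5-fold apart in either direction, and among all transcripts tested 16.2%. Of the members, 87 were higher at 6 of 6 days. The share with 1 direction at all days was 75.1% among the others over 64 CPM and 36.7% among all tested. For 33 members the 6 APC RNAi libraries and the 6 control libraries did not overlap (19.2% among the others, 7.26% among all tested).

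The direction of single members in this comparison depended on the scaling. With size factors computed by the RLE method 94 members were higher and 0 lower, where 27.3% of all tested were higher and 18.4% lower. With no factors 42 were higher and 2 lower, where 3.26% and 52.1% of all tested were. When the TMM factors came only from transcripts that reached 4 CPM there were 70 and 1, against 8.23% and 38.6%. With a loess offset, which removes by construction any difference that changes smoothly with abundance, 15 were higher and 17 lower, against 12.2% and 10.2% of all tested. Relative to the median of all transcripts tested, the members' median was 0.47 higher on the log2 scale with the main TMM factors and with each of the 3 other sets of factors, and -0.02 with the loess offset. This gap also depended on which low transcripts were tested: it was 0.25 with a minimum of 1 CPM in 6 libraries and 0.67 with no filter. In CPM of aligned reads with no further scaling, 79 members had a higher mean in APC RNAi than in control and 21 a lower one. At 6 of 6 days 30 were higher and 1 was lower. No such counts were made for other transcripts, so they cannot be set against a background.

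**Figure D3:**
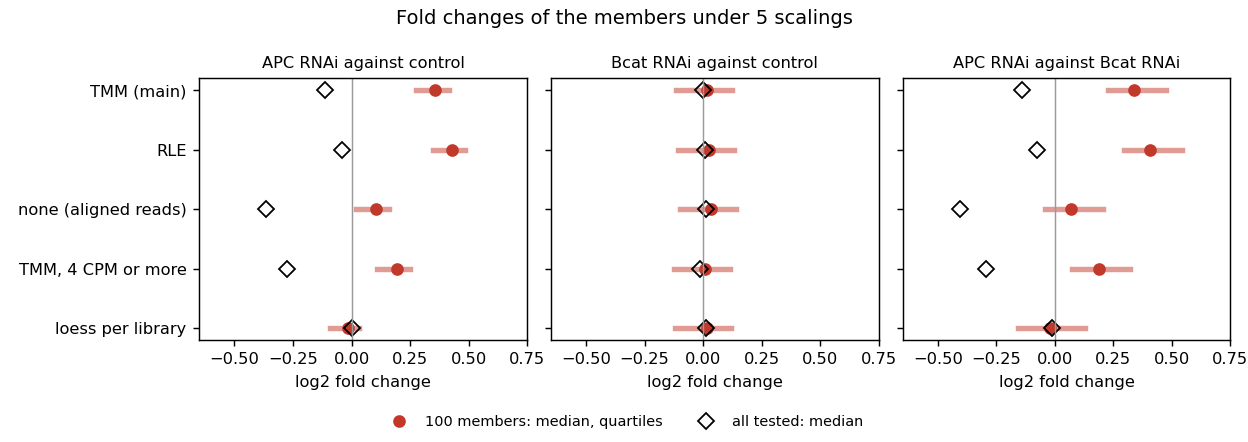
Median and quartiles of the members' log2 fold changes in each treatment comparison under the 5 scalings, with the median of all transcripts tested. For APC RNAi against control the members' median runs from 0.43 with RLE factors to -0.01 with the loess offset. For Bcat RNAi against control it stays between 0.01 and 0.03.

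The members with the largest rise under APC RNAi at all 6 days were SmedASXL_012836 and SmedASXL_061273. SmedASXL_012836 had 2767, 2942, 1925, 1581, 1515 and 1123 scaled CPM in control from day 1 to day 6, and 3729, 3595, 2814, 2999, 3036 and 2364 in APC RNAi. The APC RNAi library was the higher one on each day, although the ranges of the 2 treatments overlapped. The log2 difference was 0.71 (SE 0.09, edgeR adjusted p = 1.07e-05), and over the 5 scalings it ran from 0.32 to 0.78 and was called under each. SmedASXL_061273 had 980.0, 862, 674, 695, 684 and 588 scaled CPM in control and 1574, 1457, 1067, 1138, 1061 and 955 in APC RNAi. Its log2 difference was 0.69 (SE 0.05, edgeR adjusted p = 2.77e-08), with 0.36 to 0.77 over the scalings, each of them called. In CPM of aligned reads its mean was 784 in control, 1066 in APC RNAi and 1065 in Bcat RNAi. The first transcript outside the limit had a mean of 926 CPM, so SmedASXL_061273 was a member through the knockdown libraries.

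The single member called lower was SmedASXL_017924. Its control values rose from 873 and 758 scaled CPM at days 1 and 2 to 1034, 1204, 1272 and 1366 at days 3 to 6. In APC RNAi they were 953, 779, 917, 904, 928 and 1087, higher than control at days 1 and 2 and lower at the 4 later days. The log2 difference was -0.20 (SE 0.08, edgeR adjusted p = 0.0396), and the call held in 7 of 16 other settings.

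SmedASXL_078927 did not pass the threshold against control, with a log2 difference of 0.21 (SE 0.09, edgeR adjusted p = 0.069). It was 113313, 122603, 116613, 105038, 96441 and 94479.7 scaled CPM in control and 120934, 122508, 113358, 117689, 170446 and 110369.6 in APC RNAi. The groups overlapped, and the sign turned with the scaling. The difference was 0.28 with RLE factors, where it was called higher, -0.04 with no factors, and -0.37 with the loess offset, where it was called lower (edgeR adjusted p = 0.000359). It was called in 5 of 16 other settings.

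Under Bcat RNAi fewer members differed from control: 14 were higher, 14 lower and 72 did not pass the threshold, where 20.5% of all transcripts tested and 37.6% of the others over 64 CPM passed (24% higher and 13.6% lower; of all tested, 9.45% and 11%). The members' share of 28% thus lay between those backgrounds, and the members' median log2 difference was 0.02 (quartiles -0.11 to 0.12). Over the 5 scalings the counts ran from 13 to 26 higher and from 13 to 24 lower, and without the day block they were 7 and 10. Of all tested 9.11% to 10.9% were higher and 10.3% to 12.7% lower over the scalings, and 4.32% and 7.06% without the block. Of the members, 11 were higher and 18 lower at 6 of 6 days, 29 in all. With 1 direction at all days were 38% of the others over 64 CPM and 19.8% of all tested. In CPM of aligned reads 23 members were higher and 23 lower at 6 of 6 days, a count not made for other transcripts. The 6 Bcat RNAi and 6 control libraries did not overlap for 10 members, against 11.4% of the others and 4.88% of all tested.

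Among the members that fell under Bcat RNAi, SmedASXL_010535 had the largest difference and was the only member past 2-fold against control. It and SmedASXL_014295 were the 2 called members at least 1.5-fold apart, where 6.39% of all tested and 3.09% of the others over 64 CPM were. Called and at least 2-fold lower were 14 of the 2554 others over 64 CPM and 608 of all 36235 tested. SmedASXL_010535 had 1296, 1172, 1200.3, 1077, 990.5 and 811 scaled CPM in control from day 1 to day 6, and 752, 557, 515, 327, 377 and 293 in Bcat RNAi. In APC RNAi it had 1544, 1368, 1235, 1075, 1588 and 1072. Each Bcat RNAi library lay below each library of the other treatments. The log2 difference from control was -1.27 (SE 0.11, edgeR adjusted p = 1.48e-08), and -1.28 to -1.25 over the 5 scalings. In CPM of aligned reads its mean was 1147 in control, 1156 in APC RNAi and 498 in Bcat RNAi, so it was a member through control and APC RNAi.

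SmedASXL_014295 was next, with 2530.0, 1797, 2324, 2414, 2417 and 3377 scaled CPM in control and 1265, 987, 1294, 1546, 1843 and 1995 in Bcat RNAi. In APC RNAi it had 2488, 2341, 3066, 3388, 3183 and 3207. Bcat RNAi was lower than control on each day, while the latest Bcat RNAi libraries overlapped the lowest control library. The log2 difference was -0.75 (SE 0.08, edgeR adjusted p = 6.54e-07), and -0.76 to -0.74 over the scalings.

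Of the members called higher under Bcat RNAi with 1 direction at all 6 days, the largest differences belonged to SmedASXL_004239 and SmedASXL_061273, which also had higher values under APC RNAi. SmedASXL_004239 had 1192, 1167, 1059, 1230.4, 1011 and 970.3 scaled CPM in control and 1494, 1708, 1737, 1549, 1835 and 1610.0 in Bcat RNAi. In APC RNAi it had 1559, 1760.4, 1531, 1537, 1879 and 1607, so all 12 knockdown libraries lay above all 6 control libraries. The log2 difference between Bcat RNAi and control was 0.58 (SE 0.07, edgeR adjusted p = 2.53e-06), and 0.57 to 0.60 over the scalings. SmedASXL_061273 had 1203, 1037, 986, 933, 994 and 847 scaled CPM in Bcat RNAi, between control and APC RNAi on each day, with a log2 difference from control of 0.44 (SE 0.05, edgeR adjusted p = 6.03e-06).

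Side by side, under the main scaling, all 14 members higher under Bcat RNAi were also called higher under APC RNAi, and of the 14 lower under Bcat RNAi 13 were called higher under APC RNAi and 1 was not called there. A further 63 members were called higher under APC RNAi alone, 1 was called lower under APC RNAi alone and 8 were called in neither comparison. Both comparisons use the same 6 control libraries, so these joint counts are not independent. Since 90 of the 100 members were called higher under APC RNAi, most members of any group would be among them. The overlap with the Bcat RNAi calls therefore says little about those calls.

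**Figure D4:**
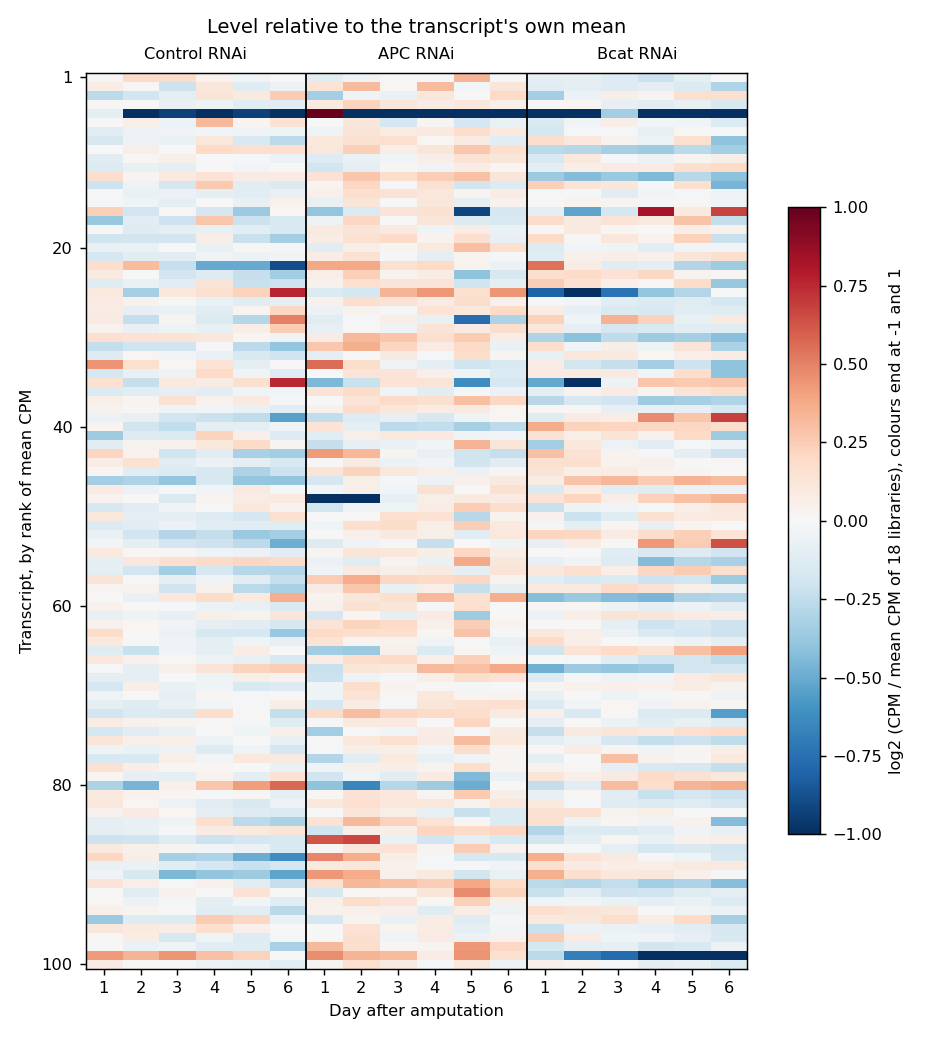
CPM of aligned reads of the 100 members in rank order in each of the 18 libraries, as log2 of the ratio to the transcript's own mean over the libraries. In APC RNAi at day 5 29 members have their highest value, and in Bcat RNAi at day 6 26 have their lowest.

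The size of the difference under APC RNAi varied between days, each of which had 1 library per treatment. The members' median log2 difference from control was, from day 1 to day 6, 0.21, 0.37, 0.27, 0.28, 0.61 and 0.37. For the next 100 transcripts by rank the medians were alike, at 0.18, 0.33, 0.23, 0.29, 0.61 and 0.37. For the others over 64 CPM they were 0.12, 0.24, 0.19, 0.23, 0.39 and 0.27, and for all transcripts tested they ran from -0.11 to -0.02. The TMM factor of APC RNAi was lowest, 0.805, in the day 5 library. For Bcat RNAi the members' medians were -0.11, 0.01, 0.07, -0.12, 0.17 and -0.01, with no constant sign, and 28 to 78 members were higher than in control depending on the day. Of the 2554 others over 64 CPM 919 to 2018 were higher, and of all 36235 tested 17708 to 18488. The part of the scaling in these medians was not tested.

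Set against each other, the knockdowns differed at most members: 82 had higher levels under APC RNAi and 2 had lower levels than under Bcat RNAi, where 49% of all transcripts tested passed (23% higher, 26% lower) and 75.8% of the others over 64 CPM (64.3% higher, 11.6% lower). The median log2 difference was 0.34 (0.41 with RLE factors, 0.07 with no factors, 0.19 with the TMM factors of transcripts that reached 4 CPM and -0.02 with the loess offset). At least 1.5-fold higher were 12 members, and at least 1.5-fold lower 0. Of the others over 64 CPM 8.14% were called and at least 1.5-fold apart in either direction, and of all tested 19.2%. At least 2-fold higher were 2 members, 40 of the 2554 others over 64 CPM and 482 of all 36235 tested. The 2 members were SmedASXL_010535, at 1.54 (SE 0.11, edgeR adjusted p = 2.98e-10), and SmedASXL_014295, at 1.01 (SE 0.08, edgeR adjusted p = 2.58e-09). Over the scalings these differences ran from 1.22 to 1.61 and from 0.64 to 1.08 and were called under each. For 44 members the 6 libraries of 1 knockdown did not overlap those of the other, against 36.2% of the others over 64 CPM and 14.1% of all tested.

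This comparison depended on the scaling as well: 88 members were higher and 0 lower with RLE factors, where 27% and 20.9% of all tested were. The members counted 44 and 19 with no factors (7.66% and 54% of all tested), 63 and 6 with the TMM factors of transcripts that reached 4 CPM (14% and 40.8%), and 25 and 29 with the loess offset (19.3% and 16.3%). SmedASXL_078927 was higher in APC RNAi by 0.40 (SE 0.09, edgeR adjusted p = 0.0013), but by 0.13 and below the threshold with no factors, and was lower with the loess offset, at -0.21 (edgeR adjusted p = 0.0087). The 2 members called lower were SmedASXL_017924, at -0.24 (SE 0.08, edgeR adjusted p = 0.0158), and SmedASXL_003069, at -0.14 (SE 0.06, edgeR adjusted p = 0.0418). Neither had the same direction at all 6 days, and both are named because the count is small.

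The authors' deposited table of this comparison lists 12115 transcripts as differing between APC RNAi and Bcat RNAi, among them 70 of the members. Of these, 69 are higher in APC RNAi by the authors' deposited table and 1, SmedASXL_017924, is higher in Bcat RNAi. All 70 were called here in the same direction, and 14 members called here are not listed there. Both results come from the same libraries, so the shared directions are not independent support. For SmedASXL_010535 the authors' deposited table gives a log2 fold change of 1.23, for SmedASXL_014295 0.88 and for SmedASXL_078927 0.36. The table also lists 61.7% of the others over 64 CPM and 33.4% of all transcripts tested.

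Over the 6 days of regeneration, 91 members were lower at day 6 than at day 1 in control in scaled CPM, with a median log2 difference of -0.34, and 59 were lower in CPM of aligned reads, with a median of -0.09. In APC RNAi 77 were lower in scaled CPM and 46 in CPM of aligned reads, and in Bcat RNAi 71 and 58. Each of these counts compares 1 library with 1 library, and no such count was made for other transcripts. In the test of any difference between days 41 members passed, against 19.1% of all transcripts tested and 45.8% of the others over 64 CPM. Over the 5 scalings this count ran from 29 to 50, and without day 6 it was 13. Of all tested, 5337 to 7995 of 36235 passed over the scalings, and 3296 of 35993 without day 6. In control, a straight line over days was called falling for 28 members and rising for 1, against 7.23% and 2.93% of all tested and 27.2% and 1.84% of the others over 64 CPM. The members' median slope in control was -0.06 log2 units per day. For the next 100 by rank it was -0.07, for the others over 64 CPM -0.05 and for all tested 0.01. In APC RNAi 7 members fell and 1 rose, where 2.72% of all tested passed (1.14% falling, 1.58% rising) and 7.48% of the others over 64 CPM (5.68% and 1.8%). In Bcat RNAi 5 fell and 4 rose, where 5.12% of all tested passed (2.25% falling, 2.87% rising), and 8.03% and 2.74% of the others over 64 CPM. With no factors 8 fell and 10 rose in APC RNAi (1.01% and 5.08% of all tested) and 8 and 8 in Bcat RNAi (2.4% and 4.89%). With the loess offset 6 fell and 13 rose in APC RNAi (1.98% and 2.64%) and 4 and 16 in Bcat RNAi (2.86% and 4.31%).

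These counts of calls moved with the libraries used, as did the shares over all transcripts tested. Falling members in control were 2 without day 1, 11 without day 2, 3 without day 6, 43 without day 5 and 45 without the APC RNAi library of day 5. Of all tested 0.848%, 3.12%, 1.71%, 12.1% and 11.2% fell, in the same order. The members' median slope stayed between -0.07 and -0.05 log2 units per day in these fits. With no factors 12 members fell (2.43% of all tested) and the members' median was -0.02. With the loess offset 5 fell (4.35%) and the median was 0.00. In APC RNAi 0 members fell without day 1 (0.189% of all tested) or without its own library of day 1 (0.0877%). There were 26 without day 5 (3.43%) and 18 without its own library of day 5 (2.51%). In Bcat RNAi 1 fell without day 1 (0.24% of all tested), 3 without day 2 (1.37%) and 2 without day 6 (0.7%). There were 36 without day 5 (6.93%) and 15 without the APC RNAi library of day 5 (4.2%). The TMM factors of control rose from 0.969 at day 1 to 1.15 at day 6, which lowers the scaled values of the later days.

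Among the members called, the steepest falls in control belonged to SmedASXL_012836 and SmedASXL_051498. SmedASXL_012836, whose values are given above, had a slope of -0.28 log2 units per day (SE 0.03, edgeR adjusted p = 1.26e-05), and -0.29 to -0.21 over the 5 scalings. SmedASXL_051498 had 1195, 1031, 752, 762, 641 and 566 scaled CPM in control from day 1 to day 6, 1678, 1491, 1107, 1081, 1116 and 921 in APC RNAi, and 1246, 1061, 1001, 895, 958 and 792 in Bcat RNAi. Its slope in control was -0.21 log2 units per day (SE 0.03, edgeR adjusted p = 2.64e-05), and all 3 treatments ended below their first day. The member that rose in control was SmedASXL_017924, with a slope of 0.16 (SE 0.03, edgeR adjusted p = 0.00269), which was 0.15 to 0.22 over the scalings.

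No member's slope differed between APC RNAi and control in edgeR's quasi-likelihood test after adjustment: 0 were called, 17 had an unadjusted p under 0.05, and the smallest adjusted p was 0.0591. Of all transcripts tested 0.0386% were called (0.0359% higher, 0.00276% lower). With RLE factors 1 member was called, and 1 with no filter on low counts, both higher, where 0.0524% and 0.106% of all tested were.

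Between Bcat RNAi and control 2 members differed in slope, SmedASXL_012786 and SmedASXL_014728, where 0.0331% of all transcripts tested were called. SmedASXL_012786 fell in control, with 1590.2, 1516, 1329.5, 1307, 1216 and 962 scaled CPM from day 1 to day 6, and rose in Bcat RNAi, with 1433, 1628, 1595, 1976, 1924 and 2289. In APC RNAi it had 1622, 1699.9, 1614, 1573, 1944 and 1679, with no called slope. The slopes differed by 0.26 log2 units a day (SE 0.04, edgeR adjusted p = 0.00225). SmedASXL_014728 had 1321, 1217, 1081, 1067, 987 and 810.1 scaled CPM in control and 1198, 1316, 1245, 1562, 1542 and 1798 in Bcat RNAi, with a slope difference of 0.24 (SE 0.04, edgeR adjusted p = 0.0104). In both, Bcat RNAi started below control at day 1 and ended above it.

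With 1 day left out the slope differences were 0.21 to 0.28 for SmedASXL_012786 and 0.20 to 0.26 for SmedASXL_014728, but some calls were lost. Without day 1 they were 0.27 and 0.25, with edgeR adjusted p = 0.135 and 0.275. Without day 6 they were 0.21 and 0.20, with edgeR adjusted p = 0.319 and 0.550. Without day 2 that of SmedASXL_014728 was 0.25, with edgeR adjusted p = 0.0806. Under the 5 scalings the slope differences were 0.23 to 0.27 for SmedASXL_012786 and 0.21 to 0.25 for SmedASXL_014728, called under each.

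**Figure D5:**
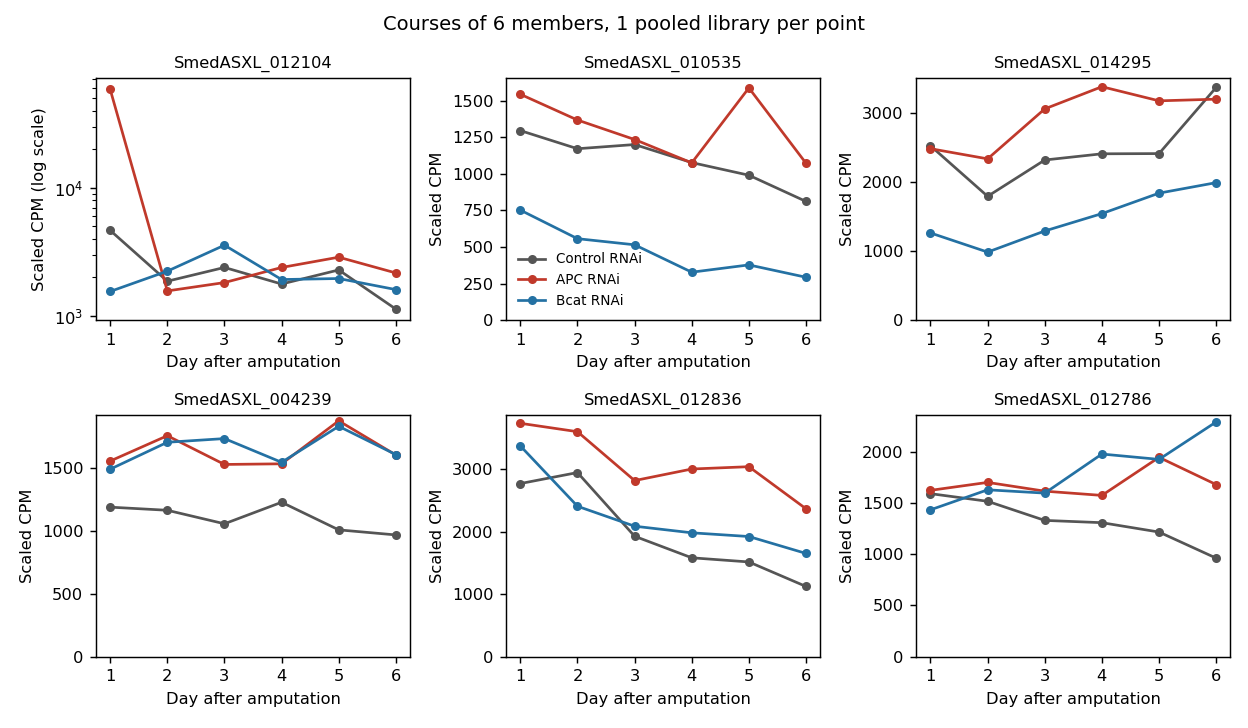
TMM-scaled CPM by day after the cut for single members in the 3 treatments, 1 pooled library per point. SmedASXL_010535 lies lowest in Bcat RNAi throughout, SmedASXL_004239 lies higher in both knockdowns than in control, and SmedASXL_012786 ends at 962 in control and 2289 in Bcat RNAi.

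Among the 4950 pairs of members the correlation of log2 CPM of aligned reads, with no further scaling, had over the 18 libraries a median of 0.12 and ran from -0.92 to 0.99, with 223 pairs over 0.8 and 428 under -0.5. These values describe libraries that share treatments, days and depth, and no p is given. The most alike were SmedASXL_004549 and SmedASXL_006750 (r = 0.99), whose ratio stayed between 1.26 and 1.34 in every library, followed by SmedASXL_012786 and SmedASXL_014728 (r = 0.98), with a ratio of 1.13 to 1.29. Whether such pairs are parts, copies or alleles of 1 gene could not be told from identifiers alone, and reads that match more than 1 transcript may be divided between them.

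By library, 29 members had their highest CPM of aligned reads in APC RNAi at day 5 and 19 in APC RNAi at day 2, and 26 had their lowest in Bcat RNAi at day 6 and 18 in control at day 6.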

How the data were processed

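RNA was measured by poly(A)-selected Illumina sequencing in 18 pooled libraries, 6 days in each of 3 treatments, per the labels' protocols. The submitters' processing notes name bcl2fastq 1.8.3, Bowtie2 2.2.4 and DESeq2. Whether reads with several matches or the strand were treated specially, and the transcript lengths, are not given in the sources used here. Raw counts by transcript, with total and unaligned reads, are as deposited by the authors. Transcript counts summed exactly to the reads that aligned in every library. The authors' deposited table of APC RNAi against Bcat RNAi gives log2 fold changes and adjusted p-values, which were used as deposited. The members, lists and tests were chosen with earlier results of these data known.

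CPM was computed as count over aligned reads, and scaled CPM with TMM factors. Tests used edgeR 4.0.16 in R 4.3.3 (filterByExpr, quasi-likelihood, Benjamini-Hochberg over 36235 transcripts, threshold 0.05), with treatment and day as factors (10 residual degrees of freedom) or treatment by day as a number (12). SE is the log2 difference over the square root of F. The labels say that libraries of 1 number share a day, so day was the block. Same-day deviations correlated at 0.0656 to 0.324 between APC RNAi and control, at -0.0302 to 0.280 between Bcat RNAi and control and at -0.00504 to 0.337 between the knockdowns. No pair of libraries matched within sampling noise. Named members were the first 5, those at the limit, the extremes of the coefficient of variation, at most 2 rising and 2 falling per comparison (largest change with 1 direction at 6 days), the largest slopes and the closest pairs. Alternatives were RLE, no factors, TMM from transcripts of at least 4 CPM, loess, no filter, a minimum of 1 CPM in 6 libraries, no block, DESeq2 1.42.0, only the groups compared, and leaving out each day.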

Additional observations from a re-analysis of the deposited data

Results flagged for a closer look

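Of 69 sets of 6 libraries examined for 1 library far from the others, 7 stood out. The rule flags about 1 in 20 independent sets by chance. These sets overlap, so the 7 cannot be set against that rate. SmedASXL_078927 in APC RNAi at day 5 enters as scaled CPM and again as a share. The peak of SmedASXL_012104 enters again in the share of the 99 other members. That transcript was examined for the level and spread that the peak gives it. SmedASXL_078927 had 170446 scaled CPM in APC RNAi at day 5, where the other 5 APC RNAi libraries had 110369.6 to 122508, and its share of aligned reads there was 13.7% against 10.1% to 10.8%. SmedASXL_012104 stood apart in each treatment. It had 58498 scaled CPM in APC RNAi at day 1 against 1567 to 2873 on the other days, 4649 in control at day 1 against 1130.5 to 2389, and 3565 in Bcat RNAi at day 3 against 1552 to 2235. The share of reads of the 99 members other than SmedASXL_078927 was 24.7% in APC RNAi at day 1, where the other APC RNAi libraries had 20.5% to 21.6%, and the library holds the peak of SmedASXL_012104. SmedASXL_012786 had 1944 scaled CPM in APC RNAi at day 5 against 1573 to 1699.9. What set these libraries apart was not tested.

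The slope over days of SmedASXL_012786 and of SmedASXL_014728 differed between Bcat RNAi and control, by 0.26 and 0.24 log2 units per day (edgeR adjusted p = 0.00225 and 0.0104).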

How the results depend on the processing

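Counts below are of members called, and the cause of a change was not tested beyond the construction of each setting. Against control, members higher under APC RNAi were 42 with no factors and 15 with the loess offset, and members lower were 2 and 17. Members lower under APC RNAi were 0 with RLE factors, with no filter, with no replicate block and with DESeq2. Under Bcat RNAi, 26 were higher with no factors (10.6% of all tested) and 7 with no replicate block (4.32%), and 24 were lower with the loess offset (12.3%). For APC RNAi against Bcat RNAi, 44 were higher with no factors and 25 with the loess offset. Lower there were 0 with RLE factors, DESeq2 or no replicate block, 19 with no factors, 6 with TMM from transcripts of at least 4 CPM, 29 with the loess offset, 1 with no filter and 1 with only the 12 knockdown libraries. Without the replicate block 81 members were higher under APC RNAi than in control and 69 than in Bcat RNAi, and 10 were lower under Bcat RNAi than in control. Of all tested 14.4%, 18.7% and 7.06% were. With no filter 66 differed between days, as did 7245 of all 82955 tested. In control, rising slopes were 5 with no factors, 4 with TMM from at least 4 CPM, 9 with loess and 3 with a minimum of 1 CPM (6.56%, 6.03%, 3.42% and 9.52% of all tested). Falling slopes were 12, 17 and 5 under the first 3 and 18 with no filter (2.43%, 3.52%, 4.35% and 1.99%). In APC RNAi, rising slopes were 10, 5, 13 and 2 with no factors, TMM from at least 4 CPM, loess and a minimum of 1 CPM (5.08%, 3.31%, 2.64% and 6.65% of all tested). Falling slopes were 14 with TMM from at least 4 CPM (2.16%) and 17 with a minimum of 1 CPM (6.63%). In Bcat RNAi, rising slopes were 8, 8, 16 and 7 in the same order (4.89%, 5.01%, 4.31% and 9.68%). Falling slopes were 8 with no factors (2.4%), 9 with TMM from at least 4 CPM (2.75%), 2 with no filter (0.536%) and 13 with a minimum of 1 CPM (7.91%). The slope of APC RNAi exceeded that of control for 1 member with RLE factors and for 1 with no filter. Of total reads the members took 29.2% in control, 31.0% in APC RNAi and 28.1% in Bcat RNAi. Leaving out 1 day, or the APC RNAi library of day 1 or day 5 (added after seeing the data), gave 85 to 92 higher and 0 to 1 lower for APC RNAi against control, 10 to 15 and 12 to 24 for Bcat RNAi against control, and 74 to 88 and 0 to 2 between the knockdowns. It gave 13 to 55 for any difference between days, rising and falling slopes of 1 to 2 and 2 to 45 in control, 0 to 1 and 0 to 26 in APC RNAi and 1 to 7 and 1 to 36 in Bcat RNAi, and slope differences of 0 to 1 higher and 0 lower for APC RNAi and 0 to 2 higher and 0 lower for Bcat RNAi. The mean shares stayed at 30.8% to 31.1%, 32.2% to 32.9% and 29.5% to 29.8%. Of 200 alternative values for 13 results of named members 195 kept direction and side of the threshold, 5 lost the call and 0 turned. These 13 were chosen as the largest called changes and slopes, which favours such stability. Results outside the 13 held less well. SmedASXL_017924 against control under APC RNAi was called in 7 of 16 other settings. SmedASXL_003069 between the knockdowns was called in 6 of 17, and SmedASXL_078927 changed sign with the scaling.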

Other observations

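SmedASXL_012104 was not alone in its peak. Of 2654 transcripts with a mean over 64 CPM, 3 had a highest library at least 5-fold above the next, and all 3 had it in APC RNAi at day 1. The other two, named after their values were seen, were SmedASXL_018222, with 1992 CPM there against 37.4 to 164 CPM in the other 17 libraries, and SmedASXL_018306, with 628 CPM against 15.0 to 66.1 CPM. The level of SmedASXL_012104 was 24.5 to 34.7 times that of SmedASXL_018222 and 62.4 to 90.0 times that of SmedASXL_018306 in every library. Over the 17 libraries without the peak the correlations of log2 CPM with SmedASXL_012104 were 0.97 and 0.96, as a description of libraries that share treatments and days.

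Of the members, 14 had an identifier that directly follows or precedes that of another member, in 8 pairs. The correlation of log2 CPM within these pairs over the 18 libraries had a median of 0.80 and ran from -0.13 to 0.98. Without an annotation, what neighbouring identifiers have in common is not known here.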
